A study of Homo sapiens with 6 samples.

Results

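The heterogeneous nuclear ribonucleoproteins (hnRNPs) described here are HNRNPA0 and 9 of its relatives, HNRNPA1, HNRNPA2B1, HNRNPA3, HNRNPC, HNRNPD, HNRNPK, HNRNPL, HNRNPM and HNRNPU. These 10 genes were found by symbol among the 35544 loci of the deposited table, and each symbol stood on 1 row. The set was chosen by the FPKM values of HNRNPA0 in this same experiment, where it was listed at 0 in every vector library, so those values are a description and carry no test. The other 9 were taken for their family name.

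Cells of SiHa, a long-established line from a squamous carcinoma of the human cervix with integrated papillomavirus DNA, were transfected with a plasmid encoding the circular RNA hsa_circ_0005358 (3 libraries, called circ_0005358) or with a vector plasmid (3 libraries, called vector). All cells were harvested 72 h after transfection, and polyA RNA was sequenced. The design asks which messenger RNAs change when the circular RNA is supplied, and its title names PTBP1, also known as hnRNP I, as the protein that the circular RNA binds. The labels write the name of the circular RNA with differing digits, and leave unsaid whether the numbered libraries are separate cultures. The p-values therefore rest on the spread among the libraries of a group, and that spread may be technical. The level of the circular RNA itself was not analysed here. Vector replicate 3 stood apart, with 27803 loci above 0, against 23227 to 23834 in the other 5 libraries, and circ_0005358 replicate 2 had the lowest depth.

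hnRNPs coat nascent transcripts in the nucleus, where they steer splicing, polyadenylation, export and decay of messenger RNA. Most bind RNA through RNA recognition motifs, while HNRNPK does so through KH domains and HNRNPU through a carboxy-terminal RGG region. The A/B group (HNRNPA0, HNRNPA1, HNRNPA2B1, HNRNPA3) shares a pair of such motifs followed by a glycine-rich tail. Members of this group often act against the serine- and arginine-rich (SR) proteins at splice sites, and their levels are high in most dividing cells.

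The coding stretch around the RNP1 motif of the first RNA recognition motif is shown for the 4 A/B genes because it shows how far each can be told from the others by sequence. Each line gives 60 bases of the GENCODE 29 coding sequence, 5′ to 3′, and capitals mark bases that differ from HNRNPA1.
HNRNPA0: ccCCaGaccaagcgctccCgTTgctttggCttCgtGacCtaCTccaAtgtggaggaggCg
HNRNPA1: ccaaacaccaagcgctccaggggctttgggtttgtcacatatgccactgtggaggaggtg
HNRNPA2B1: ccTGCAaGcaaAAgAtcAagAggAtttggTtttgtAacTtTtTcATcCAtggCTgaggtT
HNRNPA3: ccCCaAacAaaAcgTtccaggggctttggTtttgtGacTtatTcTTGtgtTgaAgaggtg
These stretches begin at coding base 124 in HNRNPA0, 145 in HNRNPA1, 166 in HNRNPA2B1 and 208 in HNRNPA3. HNRNPA0 differed from HNRNPA1 at 14 of the 60 bases, HNRNPA2B1 at 23 and HNRNPA3 at 15. Local alignments of the coding sequences, which keep only the best-matching stretch, were also made with HNRNPA1. Identical columns were 68.4% of 316 for HNRNPA0, 69.0% of 1003 for HNRNPA2B1 and 73.6% of 1046 for HNRNPA3. Of the 1119 coding bases of HNRNPA1, these covered 312 for HNRNPA0, 980 for HNRNPA2B1 and 1014 for HNRNPA3. The percentage of HNRNPA0 therefore describes a part of its sequence and cannot be set beside the other 2.

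HNRNPA0 (ENSG00000177733), an A/B protein that binds AU-rich elements in messenger RNA and is a substrate of MAPKAP kinase 2, has a single exon. In GENCODE 29 it lies on the minus strand of chromosome 5, at chr5:137745651-137754376 on GRCh38, and its transcript of 8726 bases holds a coding sequence of 918 bases. It stood at 19.0, 19.2 and 18.4 FPKM (fragments relative to transcript length and to the library's total) in the circ_0005358 libraries, against 0, 0 and 0 FPKM in the vector libraries. The circ_0005358 values lay close together, the vector values were all exactly 0, and the groups did not overlap. No fold change is given, since an exact 0 in a table without read counts can be a failed estimate. In vector libraries 1 fragment on a transcript of 1 kb was estimated at 0.0435 to 0.0444 FPKM. The estimate is the commonest low value of FPKM times length among loci with 1 transcript. On the longer HNRNPA0 transcript 1 fragment would amount to less. The row held 1 transcript, none of its transcript's 50-base words occurred in another annotated gene, and the table had 0 rows for HNRNPA0 pseudogenes.

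**Figure D1:**
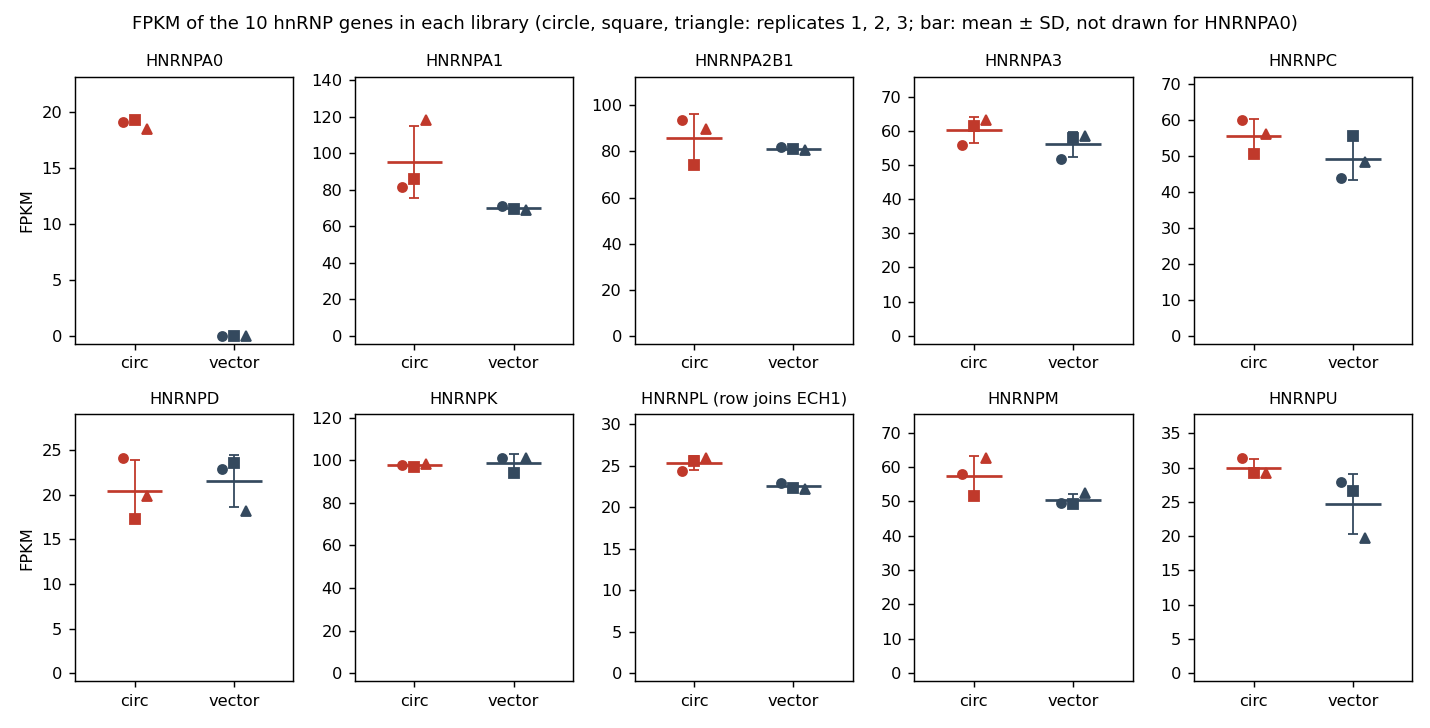
FPKM of the 10 hnRNP genes in the 3 circ_0005358 and 3 vector libraries, each panel with its own linear axis from 0, with bars for the mean ± SD except for HNRNPA0. HNRNPA0 stood between 18.4 and 19.2 FPKM in circ_0005358 and at 0 in vector; HNRNPA1, HNRNPL and HNRNPU also had groups that did not overlap, and the other 6 overlapped.

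Exact zeros beside high values were common among loci with a single exon. Of 6610 loci that reached 5 FPKM in at least 1 library, 126 were listed at 0 in at least 1 other. Among loci with an exon number in GENCODE 29, 88 of 138 single-exon loci (63.8%) had such a 0, against 13 of 6373 loci with more exons (0.204%). The zeros fell in every library, with 61, 55 and 54 loci at 0 in circ_0005358 replicates 1 to 3, and 55, 52 and 52 loci at 0 in vector replicates 1 to 3. Of the 126 loci, 30 had zeros in circ_0005358 alone, 24 in vector alone and 72 in both.

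Genes of broad use in cells were among those at 0; the following were picked after their values were seen. CENPB, the centromere protein B, stood at 24.8, 0 and 26.4 FPKM in circ_0005358 and at 24.8, 0 and 25.7 FPKM in vector. MGAT2, an enzyme of N-glycan synthesis, stood at 17.7, 18.03 and 20.9 FPKM in circ_0005358, against 0, 17.9 and 0 FPKM in vector. DOLK, the dolichol kinase, stood at 20.3, 0 and 21.7 FPKM in circ_0005358 and at 16.0, 15.8 and 0 FPKM in vector. In these 3 genes a library was either at 0 or near the level of the other libraries, as in HNRNPA0, but the zeros did not follow the groups completely.

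In 20 loci exactly 3 libraries were at 0, and these zeros took 17 different choices of libraries. In 18 of the 20 the zeros stood in both groups, in 1 they were the 3 circ_0005358 libraries (TECRP1, a pseudogene), and in 1 they were the 3 vector libraries (HNRNPA0). Exactly 0 in all libraries of 1 group and 5 FPKM or more in all of the other was seen for HNRNPA0 alone. Values near 0 were not counted there. The single-exon gene CEBPD, named after its values were seen, stood at 37.0, 28.8 and 26.1 FPKM in circ_0005358. Its vector libraries stood at 0.0316, 0.00466 and 0.0213 FPKM. The part that exact zeros of single-exon loci play in the HNRNPA0 values was not tested. With FPKM alone, a lack of transcript and a failed estimate cannot be told apart.

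**Figure D2:**
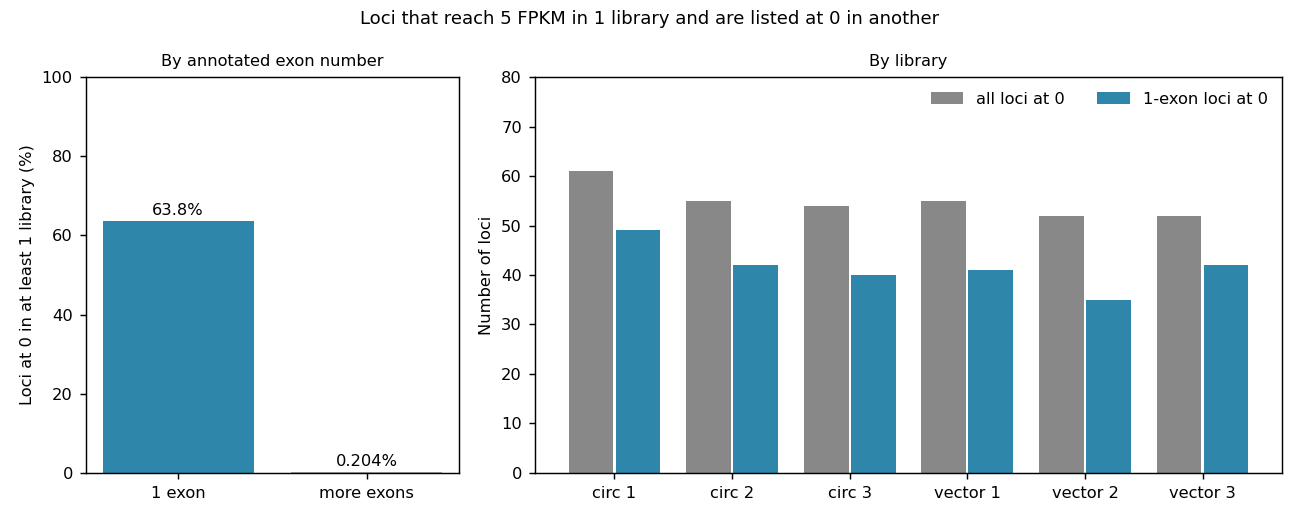
Left, percentage of loci reaching 5 FPKM in some library that were listed at 0 in another, by annotated exon number; right, number of such loci at 0 in each library, for all loci and for single-exon loci. Zeros occurred in 63.8% of single-exon loci and 0.204% of loci with more exons, and each of the 6 libraries had between 52 and 61 such loci.

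The single-exon relative PCBP1, a poly(C)-binding protein of the hnRNP E group named after its values were seen, had no 0. It stood at 113, 119 and 113 FPKM in circ_0005358 and at 107, 107 and 102 FPKM in vector, and the limma adjusted p was 0.191. PRMT6, an arginine methyltransferase with a single exon, also named after its values were seen, stood at 10.7, 0 and 0 FPKM in circ_0005358 and at 12.2, 0 and 0 FPKM in vector. Its zeros fell on replicates 2 and 3 of both groups.

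The genes around HNRNPA0 on chromosome 5 were measured without such zeros where they were expressed. The expressed ones, SPOCK1 and FAM13B, were not among the single-exon loci. Of loci with more exons 0.204% had such a 0, so the values of these neighbours carry no information on the zeros of HNRNPA0. KLHL3, an adaptor of a ubiquitin ligase that ends 9561 bases from HNRNPA0, was near its floor in both groups, at 0.145, 0.147 and 0.152 FPKM in circ_0005358 and at 0.173, 0.146 and 0.127 FPKM in vector. SPOCK1, which encodes a secreted proteoglycan, lies 147272 bases away and stood at 9.31, 9.10 and 8.74 FPKM in circ_0005358, against 4.02, 4.22 and 3.59 FPKM in vector. FAM13B, 183584 bases away on the other side, stood at 10.8, 9.15 and 9.15 FPKM in circ_0005358 and at 8.95, 8.10 and 7.99 FPKM in vector. SPOCK1 and FAM13B were higher in each circ_0005358 library than in any vector library, as were 19.8% of all tested loci. No test result is given for these neighbours. TRPC7, MYOT and PKD2L2, the other 3 nearest protein-coding genes, stood at 0.264 FPKM or less in every library.

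Among 9542 loci with a single name and a mean of at least 1 FPKM in a group, the 5 whose log2(FPKM + 1) over the 6 libraries correlated best with HNRNPA0 were IL1R1, GHITM, THBS1, MAOA and CAV2. Pearson's r was 0.9996 for IL1R1 and 0.9992 for CAV2, and with tight values in each group such an r mostly reports the difference between the groups. The 5 were picked by the HNRNPA0 values, so their own differences between the groups follow from that choice. They carry no test and are no support for the HNRNPA0 values. THBS1, the matrix glycoprotein thrombospondin, stood at 49.0, 49.0 and 50.3 FPKM in circ_0005358, against 14.5, 14.9 and 15.5 FPKM in vector. IL1R1, a receptor of interleukin 1, stood at 9.81, 9.70 and 9.93 FPKM in circ_0005358, against 3.81, 3.69 and 3.71 FPKM in vector. All 5 have at least 9 exons and none was at 0 in any library.

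HNRNPA1 (chr12:54280193-54287088, plus strand, GRCh38), which binds splicing silencers and shuttles between nucleus and cytoplasm, stood at 81.6, 85.7 and 118 FPKM in circ_0005358 and at 71.2, 69.2 and 68.6 FPKM in vector. All 3 circ_0005358 libraries lay above the vector libraries, and replicate 3 of circ_0005358 stood far above the other 2. The means were 95.1 ± 19.9 FPKM in circ_0005358 and 69.7 ± 1.35 FPKM in vector (SD, n = 3 each). Fold changes are differences of log2(FPKM + 1), where the added 1 shrinks the change of weakly expressed genes, and that of HNRNPA1 was 0.42 (SE 0.147, 95% interval 0.06 to 0.79). The limma test with Benjamini-Hochberg adjustment over 10295 loci did not pass the threshold of 0.05 (adjusted p = 0.136). Without circ_0005358 replicate 3 the difference was 0.26 (limma adjusted p = 0.0866).

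HNRNPA2B1 (chr7:26173057-26201529, minus strand), which binds pre-mRNA and sorts RNA for transport, stood at 93.6, 74.2 and 89.8 FPKM in circ_0005358 and at 82.0, 81.1 and 80.6 FPKM in vector. The vector libraries agreed within a narrow range that lay inside the spread of the circ_0005358 libraries. HNRNPA3 (chr2:177212563-177223958, plus strand), a less studied A/B protein, stood at 55.9, 61.5 and 63.1 FPKM in circ_0005358 and at 51.8, 57.9 and 58.5 FPKM in vector, with overlap. The log2 differences were 0.07 (95% interval -0.17 to 0.31) for HNRNPA2B1 and 0.10 (95% interval -0.09 to 0.29) for HNRNPA3. Neither passed the limma test, with adjusted p values of 0.676 and 0.459. With 1 library left out, the difference of HNRNPA2B1 ran from 0.0079 (without circ_0005358 replicate 1) to 0.17 (without circ_0005358 replicate 2), and that of HNRNPA3 from 0.046 (without vector replicate 1) to 0.15 (without circ_0005358 replicate 1).

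HNRNPA1 and HNRNPA3 share sequence with many processed pseudogenes, and 25.4% and 16.5% of the 50-base words in their transcripts also occurred in other genes. The share was 27.8% in HNRNPL, most of it with AC008982.1, 11.9% in HNRNPK and 6.57% in HNRNPC. It was 0.607% in HNRNPD and 0.488% in HNRNPU, while HNRNPA0, HNRNPA2B1 and HNRNPM shared none. The same coding stretch as above is given for the 2 expressed pseudogenes with 1 exon, since within it neither differs from its parent gene.
HNRNPA1P7: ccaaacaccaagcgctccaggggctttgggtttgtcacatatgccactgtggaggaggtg
HNRNPA3P6: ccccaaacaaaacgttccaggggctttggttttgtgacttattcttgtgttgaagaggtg
Over its full length of 963 bases, HNRNPA1P7 (chr18:32412214-32413176, minus strand) matched the HNRNPA1 coding sequence at 954 bases, with 9 mismatches and 156 gap columns. Of its 50-base words, 69.5% occurred in HNRNPA1. HNRNPA3P6 (chr3:75214631-75215636, plus strand) matched HNRNPA3 at 998 bases, with 4 mismatches and 54 gap columns, and 76.6% of its 50-base words occurred in HNRNPA3.

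The HNRNPA1P7 row stood at 114, 112 and 117 FPKM in circ_0005358, against 93.5, 95.7 and 0 FPKM in vector. It was close to or above HNRNPA1 itself in 5 libraries and at 0 in vector replicate 3, where HNRNPA1 was at 68.6 FPKM. The HNRNPA1P48 row (chr16:51553436-51647132, plus strand) stood at 3.46, 46.6 and 2.81 FPKM in circ_0005358 and at 2.40, 2.67 and 3.36 FPKM in vector, so circ_0005358 replicate 2 alone was high. The HNRNPA3P6 row stood at 62.6, 56.8 and 0 FPKM in circ_0005358 and at 61.1, 60.4 and 0 FPKM in vector, with a 0 in replicate 3 of both groups.

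The 54 rows of HNRNPA1 pseudogenes summed to 118, 160 and 120 FPKM in circ_0005358, against 96.6, 98.7 and 4.74 FPKM in vector. With these rows added, HNRNPA1 came to 199, 245 and 238 FPKM in circ_0005358, against 168, 168 and 73.4 FPKM in vector. The circ_0005358 libraries lay above the vector libraries with or without the pseudogene rows, and vector replicate 3 fell far below the other vector libraries only with them. FPKM values are scaled by the length of each row, so these sums are no measure of fragments. The authors' counting could divide fragments between HNRNPA1 or HNRNPA3 and these copies, and their levels are uncertain to that extent. Pseudogenes of HNRNPC, HNRNPK, HNRNPL, HNRNPM and HNRNPU summed to at most 0.532 FPKM in any library, and no row of an HNRNPA2B1 or HNRNPD pseudogene stood in the table.

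**Figure D3:**
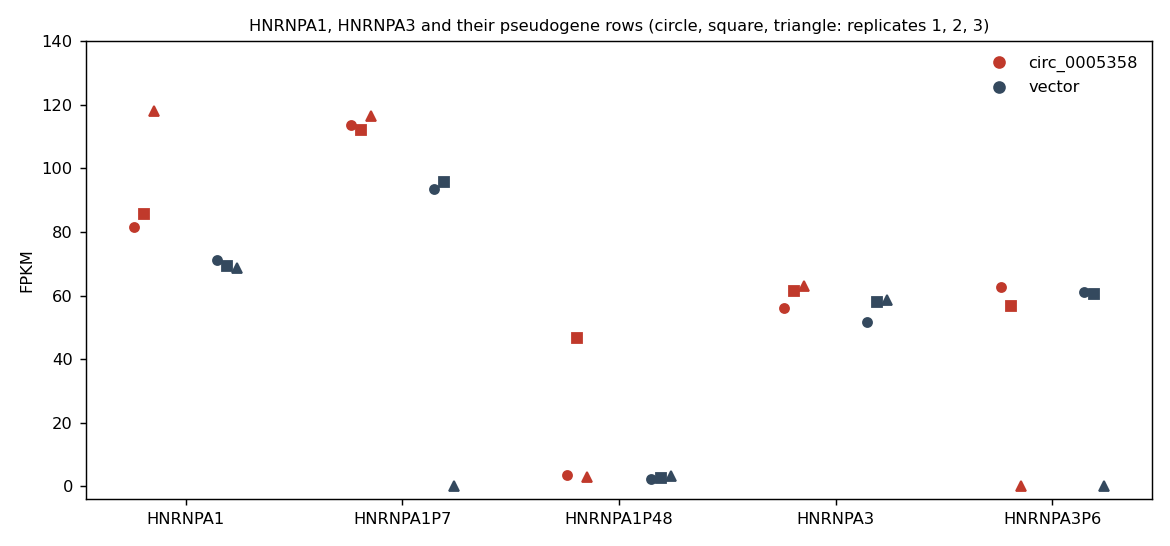
FPKM of HNRNPA1, HNRNPA3 and 3 pseudogene rows in each circ_0005358 and vector library, on a linear axis. HNRNPA1P7 was at 0 in vector replicate 3, HNRNPA1P48 reached 46.6 FPKM in circ_0005358 replicate 2, and HNRNPA3P6 was at 0 in replicate 3 of both groups.

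HNRNPC (chr14:21209136-21269494, minus strand), which binds uridine tracts and packages nascent transcripts, stood at 60.04, 50.7 and 56.1 FPKM in circ_0005358 and at 44.0, 55.8 and 48.4 FPKM in vector. HNRNPM (chr19:8444767-8489114, plus strand), a splicing regulator that binds GU-rich RNA, stood at 58.1, 51.5 and 62.8 FPKM in circ_0005358 and at 49.5, 49.4 and 52.4 FPKM in vector. Both had higher means in circ_0005358, and in both the groups overlapped. The log2 differences were 0.17 (95% interval -0.10 to 0.45) for HNRNPC and 0.18 (95% interval -0.03 to 0.39) for HNRNPM, with limma adjusted p values of 0.381 and 0.238. With 1 library left out, the difference of HNRNPC ran from 0.094 (without vector replicate 1) to 0.26 (without vector replicate 2), and that of HNRNPM from 0.12 (without circ_0005358 replicate 3) to 0.26 (without circ_0005358 replicate 2).

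HNRNPD (chr4:82352498-82374503, minus strand), also called AUF1, promotes decay of messenger RNAs with AU-rich elements. It stood at 24.2, 17.3 and 19.9 FPKM in circ_0005358 and at 22.9, 23.6 and 18.2 FPKM in vector. Both groups spread widely and overlapped, and the log2 difference was -0.08 (95% interval -0.47 to 0.31, limma adjusted p = 0.793). Without circ_0005358 replicate 2 the difference was 0.03 (limma adjusted p = 0.922).

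HNRNPK (chr9:83968083-83980616, minus strand), a poly(C)-binding protein of transcription, splicing and translation, had the highest mean of the 10 in both groups. It stood at 98.0, 96.9 and 98.1 FPKM in circ_0005358 and at 101, 94.1 and 101 FPKM in vector. The 3 circ_0005358 values lay inside the range of the vector values. The log2 difference was -0.02, and its 95% interval of -0.14 to 0.11 was among the narrowest of the 9 (limma adjusted p = 0.867).

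HNRNPL (chr19:38836388-38852347, minus strand), which binds CA repeats to set exon inclusion, stood on a row that also names ECH1, an enzyme of fatty acid oxidation, and AC008982.1. Of the 37 transcripts in that row, 14 were of HNRNPL, 16 of the other genes and 7 assembled from the reads, so the level cannot be assigned to HNRNPL alone. The row stood at 24.3, 25.5 and 26.0 FPKM in circ_0005358 and at 22.9, 22.3 and 22.2 FPKM in vector. All circ_0005358 values lay above the vector values, and the log2 difference of 0.16 (95% interval 0.04 to 0.29) did not pass the limma test (adjusted p = 0.102).

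HNRNPU (chr1:244840638-244864560, minus strand), or scaffold attachment factor A, binds RNA and chromatin. It stood at 31.5, 29.1 and 29.2 FPKM in circ_0005358 and at 27.9, 26.5 and 19.7 FPKM in vector. The groups did not overlap, but vector replicate 3 stood well below the other 2 vector libraries. The means were 29.9 ± 1.34 FPKM in circ_0005358 and 24.7 ± 4.37 FPKM in vector (SD, n = 3 each). The log2 difference was 0.28 (95% interval -0.06 to 0.62, limma adjusted p = 0.262), and without vector replicate 3 it was 0.13 (limma adjusted p = 0.313).

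By mean FPKM, the order in circ_0005358 was HNRNPK, HNRNPA1, HNRNPA2B1, HNRNPA3, HNRNPM, HNRNPC, HNRNPU, HNRNPL, HNRNPD and HNRNPA0. HNRNPK, HNRNPA1 and HNRNPA2B1 overlapped with their neighbours in that order, as did HNRNPA3, HNRNPM and HNRNPC, and as did HNRNPD and HNRNPA0. In vector the order was HNRNPK, HNRNPA2B1, HNRNPA1, HNRNPA3, HNRNPM, HNRNPC, HNRNPU, HNRNPL and HNRNPD, with HNRNPA0 listed at 0 and given no place. There the top 3 did not overlap with one another, while HNRNPA3, HNRNPM and HNRNPC overlapped with their neighbours and so did HNRNPU, HNRNPL and HNRNPD. Among the 9 genes above 0 in both groups, HNRNPA1 and HNRNPA2B1 were the only pair whose places differed between the groups. Without HNRNPA0 the other 9 summed to 527, 493 and 563 FPKM in circ_0005358, and to 473, 480 and 470 FPKM in vector.

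None of the 9 tested hnRNP genes was called at an adjusted p under 0.05 by limma (0 of 9), against 11.4% of all 10295 tested loci (6.41% higher and 4.96% lower in circ_0005358). At an unadjusted p under 0.05, 2 of the 9 passed (HNRNPA1 and HNRNPL), against 27.3% of all tested loci. The groups did not overlap in 3 of the 9 (HNRNPA1, HNRNPL and HNRNPU), all higher in circ_0005358, against 35.8% of tested loci in either direction and 19.8% in the higher direction. The share called lay below the background and the share higher without overlap above it, but over 9 genes none of these counts is a result about the members. The median log2 difference of the 9 was 0.16, with 7 above 0, against a median of 0.02 over all tested loci, of which the middle 50% lay between -0.15 and 0.20. The same test on simulated libraries with the variance of these found 38% of changes of 1.5-fold. It found 4% of the smallest changes simulated, which lay between the ratio of means of HNRNPU (1.21) and that of HNRNPA1 (1.36). The simulation changed 200 of 10295 loci, while 1171 loci were called in the data. With fewer changed loci the Benjamini-Hochberg adjustment is stricter, so these percentages do not give the power of the test for the 9 genes. The ratios of the other 7 genes ran from 0.948 to 1.14.

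Other hnRNP-like RNA-binding proteins were described with a list of 29 genes, 25 of which were tested. By limma 2 were called, HNRNPDL among them, both higher in circ_0005358, and 0 lower, against 11.4% of all tested loci called and 6.41% higher. This count is near the background. The median of the 25 was 0.06. HNRNPDL, a close relative of HNRNPD, stood at 25.2, 26.0 and 26.2 FPKM in circ_0005358, against 22.7, 20.9 and 21.6 FPKM in vector (log2 difference 0.24, limma adjusted p = 0.0479). Its symbol stood on 2 rows, and these values are of the row with the higher mean alone.

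The call of HNRNPDL was lost when any 1 library was left out, and its limma adjusted p then lay between 0.0877 and 0.147. RBMX, also called hnRNP G, stood at 36.9, 36.4 and 35.9 FPKM in circ_0005358, against 33.9, 29.1 and 29.2 FPKM in vector, and was not called (log2 difference 0.24, limma adjusted p = 0.103). PTBP1, which the study's title names, was not called either (limma adjusted p = 0.618).

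SR proteins, which mark exons for splicing, and the kinases that phosphorylate them formed a list of 23 genes, 21 of them tested. By limma 1 was called, SRSF5, higher in circ_0005358, against 11.4% of all tested loci called and 6.41% higher. With 21 genes, 1 call is too few to set the list apart from that background. The list's median was 0.06. SRSF5, an SR protein that promotes exon inclusion, stood at 35.6, 34.2 and 36.8 FPKM in circ_0005358, against 26.3, 26.7 and 28.3 FPKM in vector (log2 difference 0.38, limma adjusted p = 0.0137). Its limma adjusted p was 0.0558 without circ_0005358 replicate 3, 0.0594 without vector replicate 1 and 0.0626 without vector replicate 2. SRSF7, another SR protein, stood at 22.8, 26.0 and 24.1 FPKM in circ_0005358, against 20.3, 18.1 and 16.1 FPKM in vector (log2 difference 0.41, limma adjusted p = 0.0589). CLK3, a kinase of SR proteins, stood at 2.08, 2.27 and 2.16 FPKM in circ_0005358, against 1.58, 1.36 and 1.73 FPKM in vector (log2 difference 0.31, limma adjusted p = 0.0621). In both the groups did not overlap, but neither passed the test. The groups did not overlap in 6 of the 21, all higher in circ_0005358. Among all tested loci 35.8% did not overlap, and 19.8% were higher without overlap. These counts are no result about the list.

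Genes of the MK2 pathway and of AU-rich element binding, in which HNRNPA0 is known to act, formed a list of 20, with 17 tested. By limma 0 were called, against 11.4% of all tested loci, and 1 passed at an unadjusted p under 0.05, against 27.3%. The median of the 17 was -0.03. That gene was PTGS2, the inducible cyclooxygenase whose messenger RNA carries AU-rich elements. It stood at 2.22, 1.86 and 1.79 FPKM in circ_0005358, against 6.51, 5.53 and 2.78 FPKM in vector (log2 difference -0.95, limma adjusted p = 0.0863). All circ_0005358 values lay below all vector values. MAPK14, the kinase p38 alpha that activates MK2, had a log2 difference of 0.36 (limma adjusted p = 0.236), and MAPKAPK3, a kinase close to MK2, one of -0.47 (limma adjusted p = 0.278).

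Nuclear import receptors of hnRNPs and the enzymes that methylate their arginines formed a list of 13, with 12 tested and a median of 0.11. By limma 2 were called, PRMT7 and PRMT1, both higher in circ_0005358, against 11.4% of all tested loci called and 6.41% higher. With 12 genes, 2 calls are too few to set the list apart from that background. PRMT7, an arginine monomethyltransferase, stood at 15.8, 15.9 and 16.3 FPKM in circ_0005358, against 11.6, 11.8 and 11.2 FPKM in vector (log2 difference 0.44, limma adjusted p = 0.00570). PRMT1, the main enzyme of asymmetric arginine dimethylation, stood on a row that also names ADM5, at 19.4, 19.7 and 19.4 FPKM in circ_0005358, against 14.4, 14.8 and 14.9 FPKM in vector (log2 difference 0.38, limma adjusted p = 0.00747). Both stayed called with any 1 library left out. CARM1, another arginine methyltransferase, stood at 15.01, 15.3 and 14.2 FPKM in circ_0005358, against 12.01, 13.0 and 13.3 FPKM in vector, and was not called (log2 difference 0.20, limma adjusted p = 0.109).

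**Figure D4:**
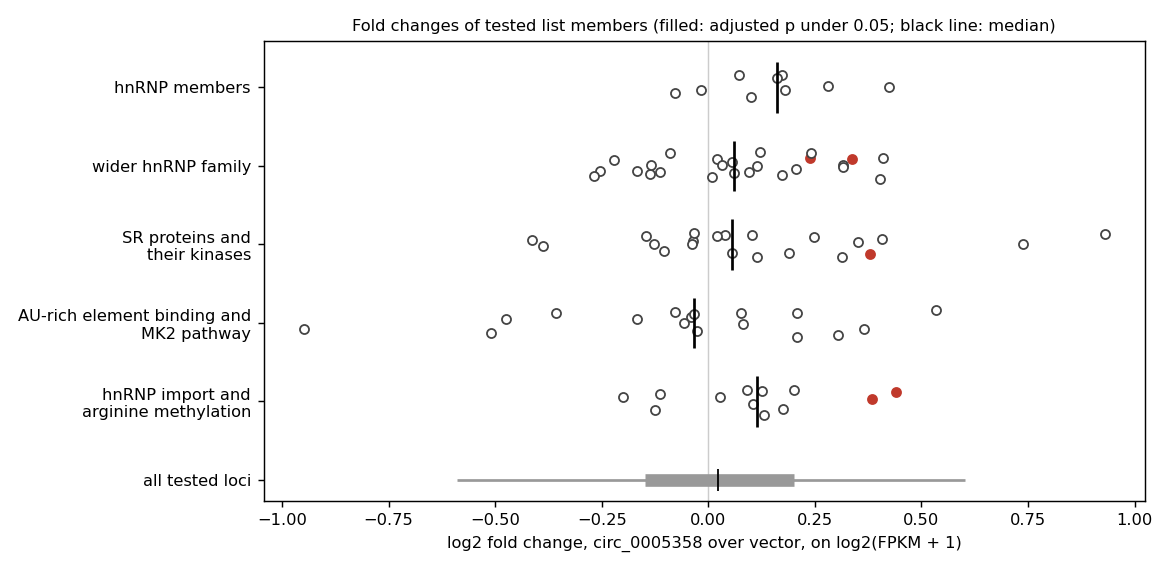
log2 differences, circ_0005358 over vector on log2(FPKM + 1), of the tested genes in the 5 lists (points, filled where the limma adjusted p is under 0.05, with a black line at the median) and of all tested loci (thin line, 5th to 95th percentile; thick line, 25th to 75th). The 9 hnRNP members had a median of 0.16 with none called, and the 5 filled points, HNRNPDL, SRSF5, PRMT7 and PRMT1 among them, all lie to the right of 0.

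Across the series, FPKM summed to between 138864 and 145278 per library, and the value of 1 fragment placed the depth of the libraries between 71.1% (circ_0005358 replicate 2) and 100% of the deepest. The epithelial identity of SiHa was visible in KRT7, KRT8, KRT17 and KRT18, which all stood at 74.4 FPKM or more, while EPCAM stood between 1.04 and 2.52 FPKM and VIM stood at 0.330 FPKM or less. These 4 keratins and EPCAM were all called lower in circ_0005358 by limma, with adjusted p from 0.000443 to 0.0469. Among all tested loci 4.96% were called lower. The 4 keratins and EPCAM summed to between 616 and 693 FPKM in circ_0005358 and to between 1251 and 1321 FPKM in vector. The symbol KRT19 stood on 2 rows, and the row with the higher mean was tested, which also names KRT9, KRT14 and KRT16. Its 8 transcripts were all assembled from the reads and 0 were annotated transcripts of KRT19, so its level cannot be assigned to KRT19. That row was lower in circ_0005358 without overlap but was not called (limma adjusted p = 0.0999). Of 10 markers of other cell types, 2 reached 1 FPKM, LUM and CD14, and HBB was at 0 in the 3 circ_0005358 libraries. LUM, a fibroblast marker, stood at 1.69, 1.11 and 1.49 FPKM in circ_0005358, against 6.35, 6.85 and 9.21 FPKM in vector, and was called lower (log2 difference -1.79, limma adjusted p = 0.00285). CD14 stood at 1.33, 14.5 and 16.2 FPKM in circ_0005358 and at 13.2, 10.4 and 10.5 FPKM in vector, with overlap. The 10 summed to between 3.93 and 18.7 FPKM in circ_0005358 and to between 18.1 and 21.7 FPKM in vector, and the part of these markers in the results above was not tested. In bulk RNA, fewer cells that express a gene and less RNA per cell cannot be told apart.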

How the data were processed

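PolyA RNA was measured in 3 circ_0005358 and 3 vector libraries of SiHa. The authors deposited 1 table of FPKM values, and the submitters' processing notes name Trimmomatic, HISAT2 and the build hg19; their versions, as well as the FPKM software and its gene models, were not stated in what was used here. Among 35544 loci, 16797 have identifiers of assembled transcripts and 1186 join several gene names. The table holds no coordinates; names, exon numbers, sequences and positions are from GENCODE 29 on GRCh38, in which 99.9% of the reference transcript identifiers were found. Every sample column was used, and read counts were not given, so no counting intervals were drawn.

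Loci with at least 1 FPKM in at least 3 of the 6 libraries (10295) were tested with limma 3.58.1 in R 4.3.3 on log2(FPKM + 1), two-sided, with the variance trend modelled, Benjamini-Hochberg adjustment and a threshold of 0.05. The table was searched for loci listed at 0 in some library and at 5 FPKM or more in another. Transcripts were cut into 50-base words to find shared sequence, and alignments used Biopython 1.88. The members and gene lists were chosen with earlier results of these data known. Genes named from each list are those called, or the 3 with the smallest p; others are said to be chosen after their values were seen, and 1 gene that the rule names is not reported here. On simulated data (10295 loci, 200 changed) the test found 70% of the loci changed 2-fold and 92% of those changed 4-fold, and it also called 6 unchanged loci. Alternatives were pseudocounts of 0.1 and 0.5, no filter, a filter of 5 FPKM, rescaling, quantile normalization, no variance trend, a block for replicate number, and fits that each omit 1 library. Omitting vector replicate 3 together with circ_0005358 replicate 2 was also tried.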

Additional observations from a re-analysis of the deposited data

How the results depend on the processing

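The 9 tested hnRNP members stayed uncalled by limma in the main setting and in all 15 alternatives (0 of 135 recomputed values past the threshold). Direction turned in 4 of these: HNRNPD to 0.032 without circ_0005358 replicate 2, and HNRNPK to 0.0019 without vector replicate 1, to 0.00018 without vector replicate 3 and to 0.0059 without both vector replicate 3 and circ_0005358 replicate 2. With 1 library left out, HNRNPD ranged from -0.20 to 0.032 and HNRNPK from -0.051 to 0.0019. The limma adjusted p of HNRNPA1 ranged from 0.0866 to 0.340. Over all loci, 1171 were called; the count was 591 with no filter, 198 without both of those libraries, a setting that holds fewer samples, and 485 to 761 with 1 library left out. With no filter, the wider hnRNP list had 0 calls in place of 2, and rescaling, quantile normalization and no variance trend each left 1. With 1 library left out it had 0 to 1, and without both libraries 0. The SR list had 1 call, 2 with quantile normalization, 0 to 1 with 1 library left out and 0 without both libraries. The AU-rich list had 0 calls, and 0 to 1 with 1 library left out. The import and methylation list had 2 calls, 2 in each leave-one-out setting and 0 without both libraries. Of 15 alternatives, HNRNPDL was called in 3, SRSF5 in 10, and PRMT1 and PRMT7 in 13 each, with no change of direction; apart from left-out libraries, the cause was not tested. With the replicate block, 259 loci were called in all, 0 members, and 0 in each of the 4 other lists. Same-numbered libraries deviated together only weakly (correlations 0.0644, 0.0481 and 0.0781), although each library correlated best with its own number, so the numbers were not taken as pairs. Counting a locus as high from 2 or 10 FPKM gave 67.0% and 51.3% of single-exon loci with a 0, in place of 63.8%; these levels were added after the data were seen. Summing all rows of a symbol left HNRNPA0 as it was, since each member stood on 1 row. Depth is known only relative to the deepest library.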
